A study of Mus musculus with 235 samples.

Results

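The prefrontal cortex (PFC) of mice that received no dexamethasone is described here through the genes that stand above or below those of 7 other brain regions. It was represented by 15 libraries, 1 from each vehicle animal, of 235 libraries in the whole series. The 15 were chosen by label alone, as every library whose title names PFC and a vehicle animal. They were set against the vehicle libraries from 7 regions labelled AMY, CER, PVN, dCA1, dDG, vCA1 and vDG, with 14 libraries each for PVN and vCA1 and 15 each for the other regions. All animals were adult male C57Bl/6 mice of 3 months. Vehicle animals received saline by intraperitoneal injection, and tissue was taken 4 h later. The glucocorticoid drug dexamethasone was given to different animals, at 10 mg per kg and for the same time, and these serve here as a repeat under treatment. Brains of both arms were perfused and the regions were punched from coronal sections, so each library mixes all cell types under the punch.

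Neocortex is a layered sheet built mainly of glutamatergic projection neurons, with a smaller population of GABA-releasing interneurons and with glia. Adult projection neurons keep expressing transcription factors that set their identity during development, such as Tbr1, and upper and deep layers differ in the factors they use. Granule cells of the dentate gyrus express Prox1, hypothalamic neurons release neuropeptides such as oxytocin and galanin, and myelin is made by oligodendrocytes. Levels of such genes help to describe the tissue under a punch, though Prox1 and myelin genes also had counts in every PFC library.

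The PFC libraries held 630414 to 990090 counts, with a median of 843655, and the medians of the other 7 regions lay between 631113 and 814797. RNA integrity (RIN) was 7.75 ± 0.50 in PFC (SD, n = 15, range 7.1 to 8.4), above the means of the other regions, which ran from 5.91 to 6.69. Every PFC library correlated best with the mean of the other PFC libraries over the 1000 most variable genes, and no library of another region was nearest to PFC. Inside PFC, replicate 2 stood apart. Its summed level of 18 oligodendrocyte genes was 9374 CPM (counts scaled to a common library total, with edgeR's TMM factors), against 1727 to 4850 CPM in the other 14, and results that touch myelin are therefore given with and without it. Among the comparison libraries, Gabra6, a receptor subunit of cerebellar granule cells, was at 50 CPM or more in 3 vDG libraries and 1 vCA1 library. It had no count in any CER library, so CER is used below only as the name of a region. The dCA1 libraries carried dentate genes at about the level of dDG (Prox1 at 523 and 463 CPM, C1ql2 at 194 and 154 CPM), and AMY held striatal genes (Penk at 910 CPM).

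Of 27998 genes in the table, 10451 had enough counts to test. Of these, 2048 (19.6%) were higher in PFC than the mean of the 7 other regions and 2085 (20%) were lower, at an adjusted p under 0.05 (edgeR's quasi-likelihood test, Benjamini-Hochberg, with the animal as a block). The log2 fold change is the PFC level minus the mean of the 7 regional levels, each on the log2 scale, and its median over all genes tested was -0.02. Most of these differences were small: 252 of the genes called higher and 271 of those called lower differed by 2-fold or more. Because 4 of the 7 comparison regions are hippocampal, a stricter call was also made, which needed PFC to differ from each of the 7 regions in one direction. It held for 270 genes above every region (2.58%) and 159 genes below every region (1.52%), with 27 and 24 of them at 2-fold or more against every region. Within animals, 218 of the 270 were higher in all 15 animals and 99 of the 159 were lower in all 15. On each of the 4 plates named in the labels, all 270 and all 159 kept their direction, and on each of the 5 dates of punching 267 and 157 did. These counts by animal, plate and date set PFC against the mean of the other regions, not against each. They come from the libraries that chose the genes, so they describe the calls and are no separate support. The same counts over all genes tested were not made. RIN differed with the region, as given above: with RIN as a covariate, 208 of the 270 and 96 of the 159 were called, and among libraries with RIN of at least 7, which left no PVN, 1 AMY and 2 vDG libraries, 16 genes stood above and 12 below each remaining region. The part of RIN in these differences was otherwise not tested. A gene was tested where at least 13 vehicle libraries of any region reached 13.7 CPM. Of the 270 genes, 257 met this on PFC libraries and on the others alike and 7 on PFC libraries alone, and of the 159, 107 met it on both and 52 on the other regions alone. Testing of genes that met it on 1 side alone favours a difference. With no such filter, 288 and 137 genes were called, of which 235 and 133 were among the 270 and the 159. Only 7 genes (0.067%) had all 15 PFC libraries above all libraries of the other regions, and no gene (0%) had all of them below.

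The genes that stood farthest above the region closest to them included a hormone receptor, a signalling inhibitor, an interneuron peptide and a transcription factor of projection neurons. Cckbr (ENSMUSG00000030898, chromosome 7, 105425817 to 105470898, plus strand), the brain receptor for the peptide cholecystokinin, was at 49.0, 64.5 and 90.4 CPM in the lowest, median and highest PFC library. The libraries of the other regions ran from 0 to 39.7 CPM with a median of 7.06 CPM. The groups did not overlap, the log2 fold change was 3.13 (SE 0.15, adjusted p 1.2e-37, edgeR), and the nearest region was vCA1 at 17.0 CPM. Its ligand gene Cck was also above every region, at 516, 804 and 1023 CPM against 19.2 to 683 CPM elsewhere, with a log2 fold change of 1.76 (SE 0.16). The ranges of PFC and the other libraries overlapped for Cck, unlike those for its receptor gene.

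Mef2c (ENSMUSG00000005583, chromosome 13, 83504034 to 83667080, plus strand), a transcription factor of cortical projection neurons, ran from 792 to 1193 CPM in PFC with a median of 1029 CPM. No other library exceeded 555 CPM, and the region means fell from 346 CPM in dCA1 to 68.7 CPM in CER. Its log2 fold change was 2.38 (SE 0.10, adjusted p 2.8e-40, edgeR). Lmo4, a LIM-domain cofactor, ran from 605 to 1265 CPM in PFC against 76.1 to 616 CPM elsewhere, with a log2 fold change of 2.01 (SE 0.08).

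Lamp5, a gene of upper-layer neurons and of a class of interneurons, was at 80.3, 109 and 162 CPM in PFC and at no more than 95.2 CPM in the other libraries, with CER the closest region at 43.4 CPM. Vip (vasoactive intestinal peptide), made by a class of cortical interneurons, was at 45.5, 76.4 and 84.2 CPM in PFC. In vCA1, its next highest region, it averaged 28.6 CPM, and in PVN 1.72 CPM. The ranges of PFC and the other libraries touched only at the lowest PFC library, since the highest of the others was 45.7 CPM. Log2 fold changes were 2.39 (SE 0.13) for Lamp5 and 2.90 (SE 0.15) for Vip.

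Chrdl1 (ENSMUSG00000031283, chromosome X, 143285674 to 143394262, minus strand), a secreted inhibitor of bone morphogenetic proteins, was at 20.9, 32.2 and 52.2 CPM in PFC and at 0 to 20.5 CPM elsewhere. Its log2 fold change was 2.78 (SE 0.15), and the groups were separated by less than 1 CPM. Stx1a, a membrane protein of the machinery that fuses synaptic vesicles, ran from 146 to 304 CPM in PFC with a median of 194 CPM, against a median of 37.4 CPM and a maximum of 153 CPM elsewhere. Herc6, an interferon-inducible gene, was at 35.1, 57.2 and 76.9 CPM against at most 31.0 CPM. Dact2 (68.1 ± 11.2 CPM, SD, n = 15), a modulator of Wnt signalling, St6gal2 (40.0 ± 10.7 CPM), a sialyltransferase, and the less characterised Gm19410 (26.0 ± 10.1 CPM) and C130074G19Rik (35.4 ± 10.6 CPM) had log2 fold changes of 1.78, 1.80, 2.67 and 1.67. All 4 were higher in PFC in 15 of 15 animals.

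Krt12 (ENSMUSG00000020912, chromosome 11, 99415666 to 99422259, minus strand), a keratin best known from the cornea, headed the ranking by its smallest difference from any region, a log2 fold change of 2.27. It was at 12.3, 23.2 and 44.7 CPM in PFC and at 0 to 16.4 CPM elsewhere, with 302 counts over the 15 PFC libraries. Like Chrdl1 and Gm19410, it had enough counts to be tested through PFC alone, and no p is given for these 3. The log2 fold change against the mean was 2.84 (SE 0.21), and 1 or more AMY libraries overlapped the lower end of PFC. Of its exon bases, 54.4% overlap A830036E02Rik on the other strand. The strand setting of the counting is not given in the sources used here, so reads of both genes may not be fully separated. A830036E02Rik itself was at 63.2 CPM in PFC and 53.5 CPM in dCA1 and was not called above every region.

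The remaining genes whose PFC libraries lay above all others were Camkk2, a kinase that activates calcium-dependent kinases, at 435 to 719 CPM against at most 417 CPM, Cobl, an actin nucleator, at 68.9 to 130 CPM against at most 58.5 CPM, and Kcnv1, a silent potassium channel subunit, at 37.6 to 84.7 CPM against at most 37.3 CPM. These 3 were named because the count they belong to is small.

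**Figure D1:**
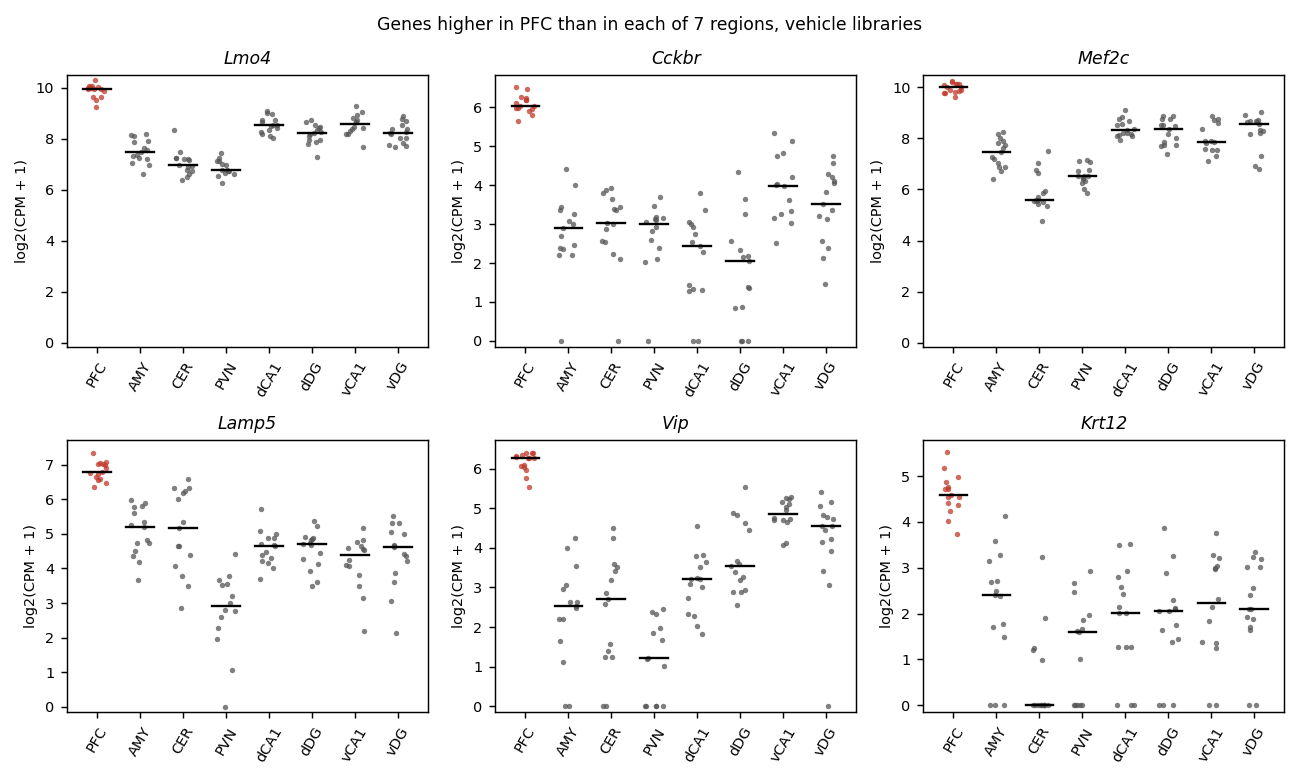
Levels of 6 genes higher in PFC than in each other region, as log2(CPM + 1) in each vehicle library, by region, with PFC in red and the median of each region as a bar. All PFC points of Cckbr and Mef2c lie above every other point, whereas the lowest PFC points of Lmo4, Lamp5, Vip and Krt12 reach into the upper range of at least 1 other region.

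The 12 named genes below every region had enough counts to be tested through the other regions alone, so their differences are given as a description with no p. Among them the largest gaps were in a heparan sulphate enzyme, the angiotensin precursor and 2 transcription factors, St18 and Lhx9. Ndst4 (ENSMUSG00000027971, chromosome 3, 125404076 to 125728899, plus strand), a sulfotransferase that modifies heparan sulphate, was at 0, 1.16 and 6.40 CPM in the lowest, median and highest PFC library. The region means elsewhere ran from 7.82 CPM in PVN to 27.6 CPM in dDG. The log2 fold change was -3.25 (SE 0.33), and PFC was lower in 15 of 15 animals. Agt (ENSMUSG00000031980, chromosome 8, 124556534 to 124569706, minus strand) encodes angiotensinogen, which in brain is made largely by astrocytes. It was at 1.04, 3.57 and 6.40 CPM in PFC, at 146 CPM in PVN, 70.9 CPM in CER, 64.7 CPM in AMY and 44.4 CPM in vDG, and at 12.2 to 13.5 CPM in dCA1, dDG and vCA1. Its log2 fold change was -3.30 (SE 0.27), and only the lowest libraries of dCA1, dDG and vCA1 overlapped PFC.

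St18, a zinc-finger transcription factor, was at 1.08, 7.99 and 27.6 CPM in PFC against 12.7 to 113 CPM elsewhere, with a median of 40.4 CPM. The highest PFC library was replicate 2, and the next was replicate 11 at 14.5 CPM, so the highest PFC libraries overlapped the lowest of the others with and without replicate 2. Lhx9, a LIM-homeobox factor of diencephalic and other non-cortical neurons, was at 1.55 ± 1.61 CPM in PFC (SD, n = 15). It was at 41.2 CPM in PVN, 35.2 CPM in dCA1 and 28.1 CPM in vDG, and at 5.15 CPM in AMY, the closest region. Prox1 was also below every region, at 25.5, 42.6 and 76.6 CPM against 42.9 to 922 CPM, with a log2 fold change of -2.16 (SE 0.18).

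Receptor and enzyme genes below every region included Npy2r, a receptor for neuropeptide Y, at 3.48 ± 1.64 CPM in PFC against means of 9.54 CPM in CER to 57.6 CPM in dCA1, and Aldh1a1, which makes retinoic acid, at 16.2 ± 6.51 CPM against 43.0 CPM in AMY to 238 CPM in CER. Fibcd1, a gene of CA1 neurons, was at 2.35 CPM in PFC and 58.8 CPM in vCA1. Log2 fold changes of these 3 were -2.78, -2.35 and -3.13. The other named genes below every region were Thsd7b, Rerg, Zfp503, Gstm6 and Cachd1, with log2 fold changes between -1.60 and -2.04. Thsd7b and Rerg were lower in 14 of 15 animals and the other 3 in all 15.

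**Figure D2:**
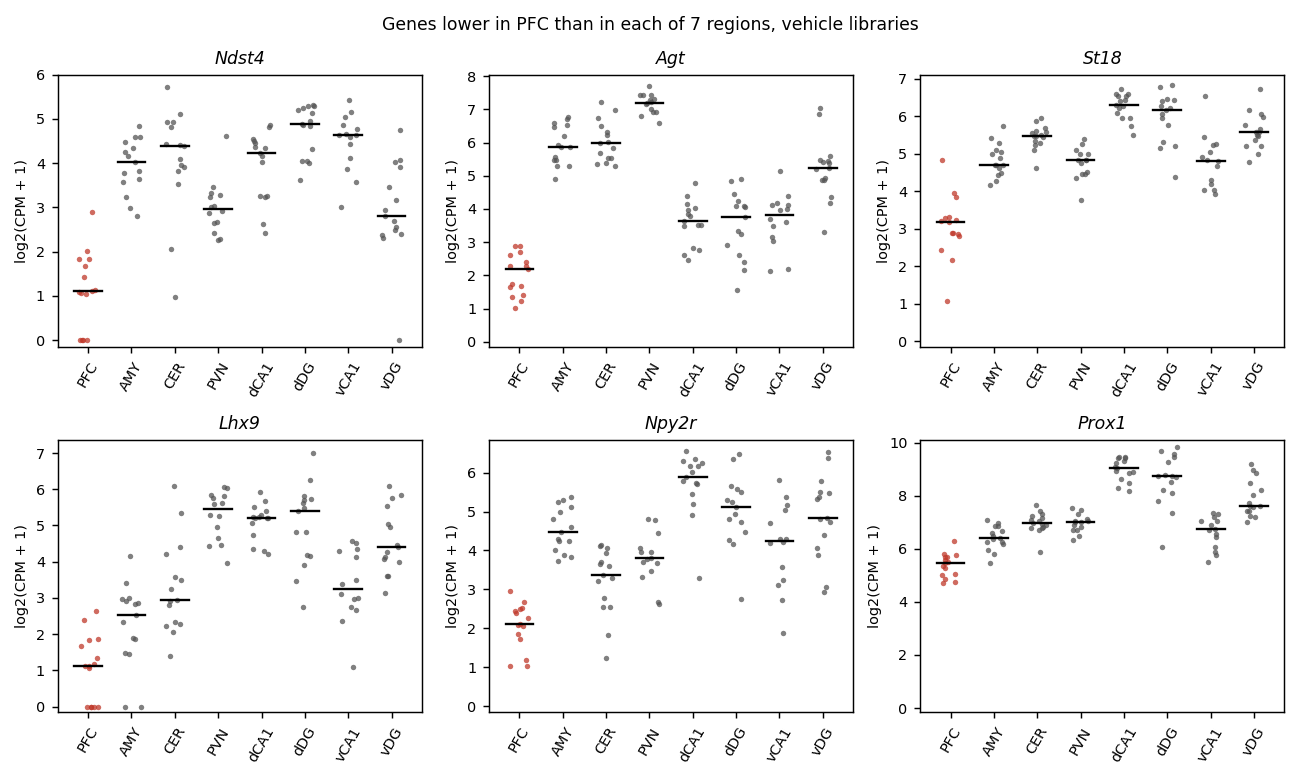
Levels of 6 genes lower in PFC than in each other region, as log2(CPM + 1) in each vehicle library, by region, with PFC in red and the median of each region as a bar. PFC medians are the lowest of the 8 in every panel, and for each gene 1 or more libraries of another region overlap PFC.

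The start regions of leading genes are shown with short motifs marked, since Egr1 and Egr4, whose proteins bind a GC-rich motif, were themselves above every region. The sequences run 5′ to 3′ along the gene, from 200 bases before the annotated start to 10 after it (RefSeq, GRCm38.p6). Capitals mark any match to 1 of 4 motifs searched on both strands, CAGATG (bound by NeuroD proteins), AGGTGTGA (T-box), TGACGTCA (CRE) and GCGGGGGCG (EGR). Krt12 lies at chr11:99422250-99422459 on the minus strand, Cckbr at chr7:105425531-105425740 on the plus strand and Agt at chr8:124569697-124569906 on the minus strand.
Krt12: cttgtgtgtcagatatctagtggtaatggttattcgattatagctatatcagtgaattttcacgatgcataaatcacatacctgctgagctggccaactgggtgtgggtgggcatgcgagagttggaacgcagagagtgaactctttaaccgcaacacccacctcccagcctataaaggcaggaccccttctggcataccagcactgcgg
Cckbr: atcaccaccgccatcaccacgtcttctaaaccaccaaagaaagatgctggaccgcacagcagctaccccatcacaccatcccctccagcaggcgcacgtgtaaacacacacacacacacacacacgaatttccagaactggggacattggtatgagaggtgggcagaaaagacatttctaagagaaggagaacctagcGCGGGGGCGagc
Agt: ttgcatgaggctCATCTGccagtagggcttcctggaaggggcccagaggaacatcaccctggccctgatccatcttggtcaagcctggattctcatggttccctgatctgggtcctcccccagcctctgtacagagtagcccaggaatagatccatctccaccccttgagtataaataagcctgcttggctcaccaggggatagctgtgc
The window of Krt12 held none of the 4 motifs, that of Cckbr 1 EGR motif at the start itself, and that of Agt 1 E-box 188 bases upstream. No window was found for Chrdl1 or Ndst4. Over the full windows of 300 bases, the EGR motif was in 7.53% of 279 promoters of genes above every region, in 4.35% of 161 promoters of genes below every region and in 5.92% of the promoters of all tested genes. The E-box was in 10.8%, 17.4% and 11.3% of the same sets, the CRE in 0.717%, 0% and 3.16%, and the T-box motif in 1.08%, 1.86% and 0.704%. These shares are descriptions of letters, and no binding was measured.

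A separate set of genes was close to absent from PFC. Of the genes tested, 24 had a PFC mean under 1 CPM, and all had counts in at least 2 of the 15 PFC libraries. A total of 3 counts over the 15 libraries corresponds to 0.248 CPM. These genes could be tested only because they were high in another region, so their levels are given as a description. The highest level was in CER for 11, in PVN for 8, in AMY and dDG for 2 each and in vDG for 1. Shox2, a homeobox factor, was at 0.732 CPM in PFC (9 counts in all) and at 109 ± 60.1 CPM in PVN (SD, n = 14). Slc18a2, which loads monoamines into vesicles, was at 0.563 CPM in PFC and 66.0 ± 93.8 CPM in CER, where single libraries ranged from 0 to 382 CPM. Lct, an intestinal lactase that is also found in dentate tissue, was at 0.565 CPM in PFC, 35.4 CPM in dCA1 and 36.9 CPM in dDG. Ngfr, the low-affinity neurotrophin receptor of cholinergic neurons, was at 0.879 CPM in PFC and 25.4 ± 16.1 CPM in AMY, and Cdh1, an epithelial cadherin, at 0.926 CPM in PFC and 28.4 ± 20.4 CPM in vDG. In vCA1 the corresponding gene was Lhx1os, at a mean of 5.87 CPM and a median of 0, and that mean came from 1 library at 71.5 CPM, which was among the 4 with Gabra6. The log2 fold change of Lhx1os against vCA1 was -3.31 with those 4 libraries and -0.95 without them.

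Gene lists for cell types and functions were described by the number of members called, beside the shares of 19.6% and 20% over all genes. Of 18 tested genes of neocortical projection neurons, 16 were higher in PFC than the mean of the 7 regions, none was lower, and the median log2 fold change was 1.26. With the 4 hippocampal regions weighted as 1, the median was 2.18. Above every region were 3 of the 18, Mef2c and Lmo4 among them, beside 2.58% of all genes tested. The summed level of the list had a median of 11163 CPM in PFC, 12047 CPM in dCA1 and 10619 CPM in dDG, and of 1260 to 8888 CPM in the other 5 regions. Tbr1, a deep-layer T-box factor, was at 203 ± 30.4 CPM in PFC with a log2 fold change of 2.03, and 141 CPM in vCA1 kept it from the stricter call (adjusted p 0.051, edgeR). Slc17a7, the vesicular glutamate transporter of cortex and hippocampus, was at 292 ± 68.3 CPM in PFC and 303 CPM in dCA1, so its log2 fold change of 1.46 came from AMY, CER and PVN (18.3 to 70.9 CPM). Neurod2 and Bhlhe22 were called higher at log2 fold changes of 0.59 and 0.50, although their levels in dCA1, dDG, vCA1 and vDG were above PFC. Neurod2 was at 89.5 CPM in PFC and 297 CPM in dCA1. For 11 of the 2048 genes, these among them, the arithmetic mean of the 7 region means was above PFC. Sox5 (0.17) and Nptx1 (-0.13) did not pass the test. In the tissue mixture of a punch, fewer cells of a type and less RNA per cell cannot be told apart, here or for the glial genes below.

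Layer genes differed from one another. Of 13 upper-layer genes, 7 were higher and 1 was lower (median 0.43). Of the 11 with enough counts in PFC as well as elsewhere, 6 were higher and none was lower. Cux2, a homeobox factor of upper layers, was above every region at 134 ± 27.2 CPM against 64.9 CPM in PVN, the next highest. Mdga1, an adhesion protein of upper layers, was below every region at 6.35 ± 3.55 CPM (log2 fold change -1.76, SE 0.21). Mdga1 had enough counts to be tested through the other regions alone, which favours a lower call, so its difference is a description. Rorb, a layer 4 factor, was at 114 ± 16.0 CPM in PFC and 95.1 to 149 CPM elsewhere, and did not pass the test. Of 13 layer 5 genes, 5 were higher and 2 lower (median 0.13), and none was above every region. Without the animal block 3 were higher, and the median was 0.24 with RIN as a covariate and 0.34 with the hippocampal regions weighted as 1. Bcl11b was at 198 ± 18.1 CPM in PFC, 684 CPM in dCA1 and 32.7 CPM in PVN, and Fezf2 was at 40.7 CPM in PFC and 66.8 CPM in vCA1. Of 12 genes of layer 6 and subplate, 2 were higher and 5 lower (median -0.08, and 0.17 among libraries with RIN of at least 7), and their summed level was higher in vCA1 (median 1219 CPM) than in PFC (439 CPM). Of the 6 with enough counts in PFC as well as elsewhere, 1 was higher and 3 were lower.

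Interneuron genes were split between directions, with 8 of 21 higher and 7 lower. Their median of -0.05 turned to 0.018 with RIN as a covariate and to 0.21 among libraries with RIN of at least 7, and it was -0.24 with the hippocampal regions weighted as 1. The higher ones were peptides and related genes, Vip, Cck, Npy (1.17), Crhbp (0.65), Sst (0.60), Cnr1 (0.45) and the developmental Dlx1 (0.68) and Dlx6os1 (0.52). The lower ones included the genes for GABA synthesis and packaging, Gad1 (-0.52), Gad2 (-0.77) and Slc32a1 (-0.82). Gad2 was at 75.3 ± 14.3 CPM in PFC, 71.4 CPM in dCA1 and 309 CPM in AMY, so the difference lay against AMY, PVN and CER. Calb2 was at 13.5 ± 5.12 CPM against up to 183 CPM in PVN (log2 fold change -1.87), and it had enough counts to be tested through other regions alone, which favours a lower call. Of the 15 interneuron genes with enough counts in PFC as well as elsewhere, 6 were higher and 5 lower. Pvalb, at 56.5 ± 24.3 CPM, did not pass the test (-0.24).

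Genes of other regions differed by list. Of 19 hippocampal genes, 10 were lower and 4 higher (median -0.78), and 6 were lower when the hippocampal regions were weighted as 1 (median -0.46). C1ql2 and Dsp, both dentate genes, were at 3.86 and 1.96 CPM in PFC and at 154 and 116 CPM in dDG. The 4 higher genes were Ccn3 (1.71), Trpc6 (1.64), Man1a (0.73) and Npnt (0.71), and Ccn3, at 64.3 to 151 CPM in PFC, was higher still in vCA1, at a mean of 198 CPM. Of 17 hypothalamic genes, 12 were lower and 1, Sst, was higher (median -1.17). Among libraries with RIN of at least 7, where no PVN library was left, 3 were lower and the median was -0.27. With the hippocampal regions weighted as 1, 15 were lower and the median was -2.06. Nnat was below every region, at 191 ± 48.9 CPM in PFC against 269 CPM in dDG, the lowest of the others. Among 16 striatal genes 4 were lower and 2 higher, among them Foxp1 (0.52), with a median of -0.25, and 7 were lower among libraries with RIN of at least 7. Many of these members could be tested only through the regions where they are high, which favours a lower call. Of those with enough counts in PFC as well, 3 of 9 hippocampal, 4 of 5 hypothalamic and 3 of 9 striatal genes were lower. Listed genes with too few counts to be tested were not compared. They included Drd2, Sim1, Adra1d, Sstr4 and Crhr2, which had no count in any of the 15 PFC libraries, and that allows up to 0.248 CPM.

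The list of regional transcription factors, which shares members with lists above, was also split, with 14 of 40 higher and 15 lower (median -0.12, and 0.06 without the 4 libraries with Gabra6). Of the 40, 5 were among the near-absent genes above, and of the 24 with enough counts in PFC as well as elsewhere, 14 were higher and 5 lower. Factors of the developing cortex, Emx1 (1.78), Lhx2 (1.32) and Emx2 (1.15), were higher against the mean, yet none of the 3 was above every region. Lhx2 was at 142 ± 21.0 CPM in PFC, 140 CPM in dCA1 and 15.0 CPM in CER. Meis2 was higher (1.14) and Meis1 lower (-2.03), at 319 and 3.26 CPM in PFC. Six3 (-2.51) and Tcf7l2 (-1.17), factors of the ventral forebrain and the thalamus, were lower. The near-absent factors included Lhx1, Irx1, Irx2 and Otp, with 3 to 11 counts over the 15 PFC libraries, and they are given as a description only.

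**Figure D3:**
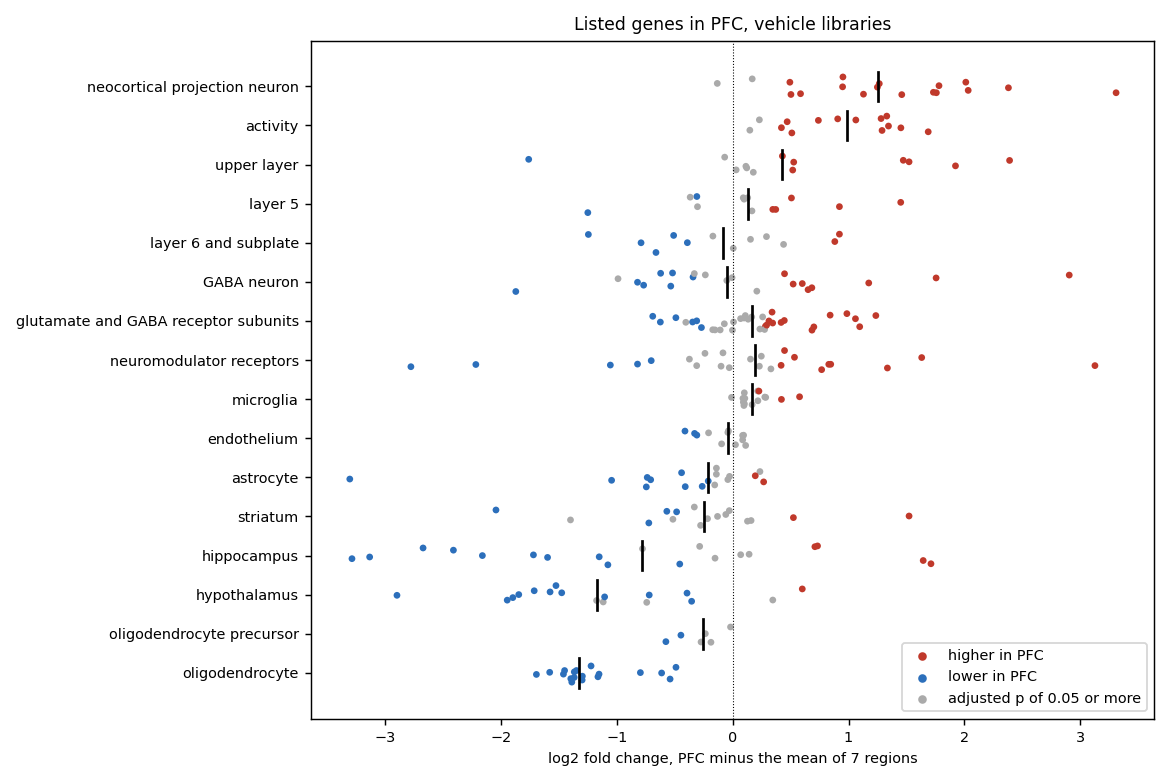
Log2 fold change of PFC against the mean of the 7 other regions for each tested member of 16 gene lists, with members called higher in red, called lower in blue and not called in grey, and the list median as a black bar. All 18 oligodendrocyte genes lie below 0 and 16 of 18 projection neuron genes are called higher, while interneuron genes spread to both sides.

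Myelin genes were low in PFC. All 18 oligodendrocyte genes tested were lower than the mean of the 7 regions (median -1.32), among them all 12 with enough counts in PFC as well as elsewhere, and Mobp, Cnp, Cldn11 and Mal were among those below every region. Mobp, a structural protein of myelin, was at 108, 203 and 1212 CPM in the lowest, median and highest PFC library, and at means of 412 CPM in dCA1 to 2136 CPM in CER. The highest PFC value was replicate 2, and without it all 18 genes were still called lower, with a median of -1.50. The median summed level of the list was 2729 CPM in PFC, 3805 CPM in dCA1, 5714 to 6533 CPM in PVN, vCA1, dDG and vDG, 11450 CPM in AMY and 17082 CPM in CER. Genes of oligodendrocyte precursors were lower for 2 of 6 (median -0.25), and for none among libraries with RIN of at least 7 (median 0.0077), and Pdgfra, the defining receptor of these cells, was at -0.02 and did not pass.

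Astrocyte genes were lower for 9 of 17 and higher for 2 (median -0.21), with Agt the only one below every region. Of the 15 with enough counts in PFC as well as elsewhere, 8 were lower and 2 higher. Slc1a3 (0.27) and Slc1a2 (0.20), the glutamate transporters, were higher, and Aqp4 (-0.71) and Gfap (-0.75) were lower. Their summed level was similar, at a median of 8893 CPM in PFC against 9571 CPM over the other libraries. Microglial genes were higher for 3 of 15, Siglech (0.58), Fcrls (0.42) and C1qb (0.23), and none was lower (median 0.17). With RIN as a covariate 7 of the 15 were higher (median 0.34), and among libraries with RIN of at least 7 only 1. Endothelial genes were lower for 3 of 12 (median -0.04), and for none with RIN as a covariate (median 0.073). Choroid plexus and ependymal genes were lower for 4 of 4 (median -1.48), all tested through other regions alone, and for 2 when the hippocampal regions were weighted as 1. Ttr, a choroid plexus gene, was at 36.1, 1237 and 11260 CPM in the lowest, median and highest dDG library and at 12.7, 29.4 and 85.0 CPM in PFC. Of 4 haemoglobin genes tested 1 was higher (median 0.22), and none was without PFC replicate 2, without the animal block or with RIN as a covariate (median 0.37). The summed level of that list ran from 49.7 to 899 CPM in PFC. Of the shorter lists, mural and meningeal genes were higher for 3 of 9 and lower for 1 (median 0.12), cerebellar genes for 2 and 1 of 7 (median -0.15, and 0.09 without the 4 libraries with Gabra6), matrix genes of perineuronal nets for 2 and 3 of 8 (median -0.19), and mitochondrial genes for 1 and 0 of 7 (median 0.16). Other list medians that moved by over 1.5 times included those of neuromodulator receptors below (0.068 with the hippocampal regions weighted as 1), of receptor subunits below (0.28 with that weighting) and of astrocyte genes (-0.091 with RIN as a covariate). Those of mural and meningeal genes (0.0089 without PFC replicate 2) and of net matrix genes (-0.027 with RIN as a covariate) also did. Whether the balance of cell types in the punches moved the gene lists above was not tested.

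Genes of neuronal signalling followed. Of 24 tested receptors for neuromodulators, 9 were higher and 5 lower (median 0.19), and of the 9 with enough counts in PFC as well as elsewhere, 7 were higher and 1 lower. Beside Cckbr, Adrb1, the beta-1 adrenergic receptor, was above every region at 34.3, 41.4 and 59.2 CPM, with vCA1 the next at 25.1 CPM (log2 fold change 1.34, SE 0.11). Adra1b (1.63), Chrm3 (0.85), Chrm1 (0.83) and Adra1a (0.77) were higher against the mean, whereas Npy2r, Drd5 (-2.22), Htr2c (-1.06), Adra2a (-0.82) and Chrna4 (-0.70) were lower. Drd1, a dopamine receptor, was at 14.0 ± 6.62 CPM in PFC and 114 CPM in AMY, and did not pass. Of 35 subunits of glutamate and GABA receptors, 14 were higher and 6 lower (median 0.16). Grm3, a presynaptic and glial glutamate receptor, was the only one above every region, at 159 ± 16.8 CPM (log2 fold change 0.99, SE 0.08). Gria1 was lower (-0.69), at 360 CPM in PFC and 975 CPM in dCA1.

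Genes induced by neuronal activity were higher for 12 of 14, none was lower, and the median was 0.98. Egr1, an immediate early transcription factor, was at 147, 245 and 385 CPM in PFC and at 20.5 to 227 CPM in the other libraries (log2 fold change 1.45, SE 0.13, adjusted p 1.9e-17, edgeR). Egr4 (1.69), Nr4a1 (1.34) and Homer1 (1.33) were also above every region. Arc was higher against the mean (1.28) but not against vCA1, with 99.6 ± 37.9 CPM in PFC and 81.2 CPM there. All of these ranges overlapped between PFC and other regions. In the list of the glucocorticoid axis, 6 of 11 genes were lower and 1, Crhbp, was higher (median -0.27). Of the 6 members with enough counts in PFC as well as elsewhere, 3 were lower and none was higher. Nr3c1, the glucocorticoid receptor gene, was at 92.8 ± 16.5 CPM in PFC and at 78.0 to 96.9 CPM elsewhere, and did not differ past the threshold (0.05, SE 0.06). Nr3c2, the mineralocorticoid receptor gene, was at 14.1 ± 3.60 CPM in PFC and 73.1 CPM in dCA1 (log2 fold change -1.21), while PVN was at 11.0 CPM. Fkbp5 (-0.80) and Sgk1 (-0.54), genes that glucocorticoids induce in many tissues, were lower, and so were Hsd11b1, Tsc22d3 and Fkbp4. Nr3c2, Fkbp5 and Hsd11b1 had enough counts to be tested through other regions alone, which favours a lower call, so their differences are a description.

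Single regions differed from PFC to unequal extents. The count of genes past the threshold was 5053 (48.3%) against CER, 4526 (43.3%) against PVN, 3690 (35.3%) against AMY, 3688 (35.3%) against dDG, 3416 (32.7%) against dCA1, 3002 (28.7%) against vDG and 1733 (16.6%) against vCA1. These 7 contrasts share the PFC libraries. For 107 of the 270 genes above every region, vCA1 was the next highest region, against 17 to 35 for any other. Against PVN, the 5 deepest gaps were in 3 neuropeptide genes and in Shox2 and Isl1, both homeobox factors and both among the near-absent genes. The peptide genes were Pmch at 5.84 CPM in PFC and 845 CPM in PVN, Oxt at 2.36 and 276 CPM, and Hcrt at 5.34 and 658 CPM. Against AMY the deepest gaps were in Six3 and in the near-absent Slc10a4, a transporter of cholinergic and other neurons, at 0.190 CPM in PFC and 24.2 CPM in AMY. Against CER they included Glra1, a glycine receptor subunit, at 1.08 CPM in PFC and 94.0 CPM in CER. Against vCA1 the genes with the largest differences in the other direction included Coch, a matrix protein at 27.6 CPM in PFC and 1.77 CPM in vCA1, and Mkx, a homeobox factor at 35.2 and 4.64 CPM.

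**Figure D4:**
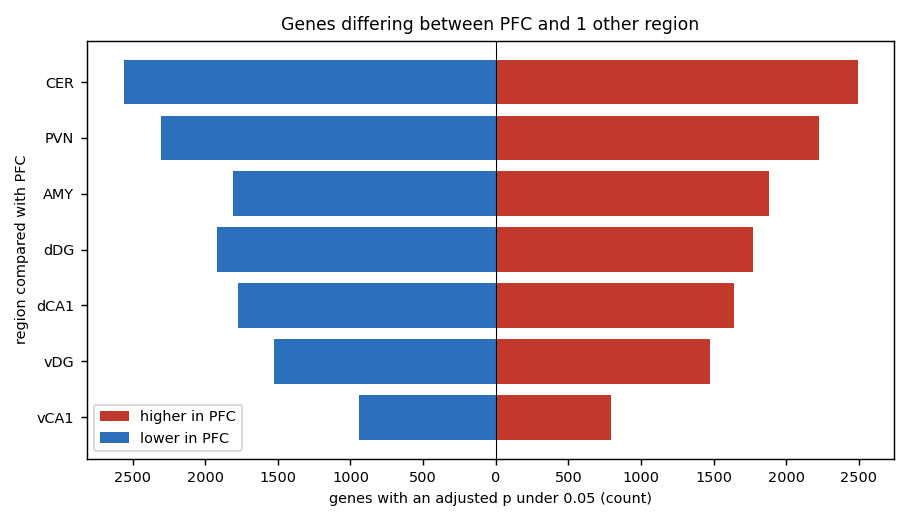
Number of genes with an adjusted p under 0.05 between PFC and each of the 7 other regions, with genes higher in PFC to the right and lower to the left. The bars are longest against CER (2491 higher and 2562 lower) and shortest against vCA1 (791 and 942).

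The comparison was repeated in the dexamethasone animals, with 14 PFC libraries and no animal in common. There, 1954 of 10531 genes were higher (18.6%) and 1825 lower (17.3%). Of the vehicle genes above every region, 267 were tested there and 263 (98.5%) were again higher than the mean of the other regions. Of those below every region, 152 of 158 (96.2%) were again lower. Of all genes called against the mean, 1572 of 2010 (78.2%) and 1392 of 2050 (67.9%) were called in the same direction, and 5 in all were called in the opposite one. The difference between arms was tested as an interaction, which passed for 29 of 11053 genes (0.262%). The smallest p was that of Cdkn1a, a cell cycle inhibitor, at 82.7 ± 21.6 CPM in vehicle PFC. Its log2 fold change was 0.89 in vehicle animals and -0.45 in dexamethasone animals, a difference of -1.34 (SE 0.14, adjusted p 6.3e-14, edgeR). Znfx1, an RNA helicase of antiviral defence, went from 0.63 to -0.36, and was above every region in vehicle animals. Ccng1, a cyclin, went from 0.47 to -0.24. The differences of Herc6 and Dact2 kept their sign at 1.40 and 1.13 in dexamethasone animals, from 2.09 and 1.78.

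**Figure D5:**
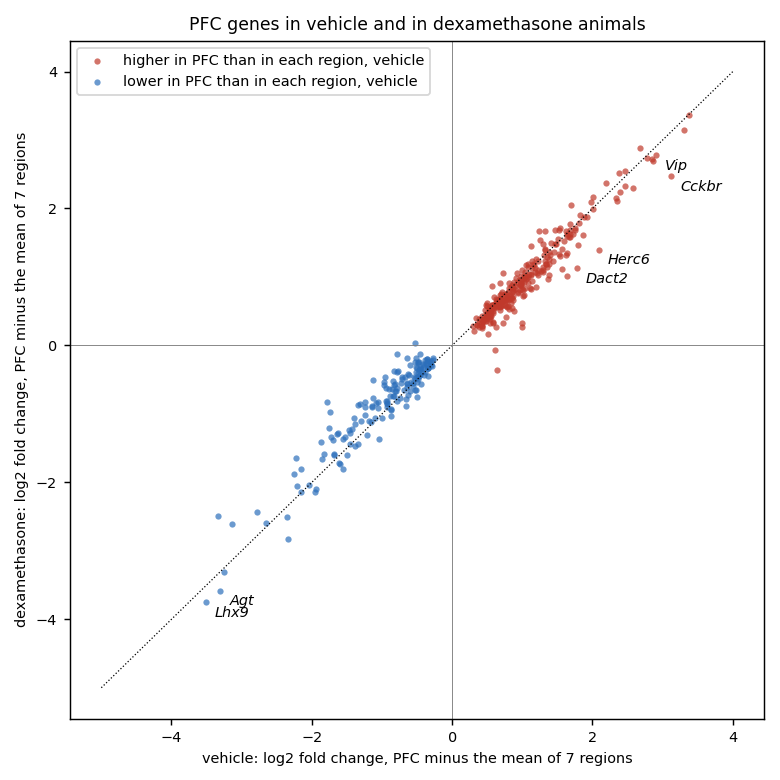
Log2 fold change of PFC against the mean of the 7 other regions in vehicle animals (horizontal axis) and in dexamethasone animals (vertical axis), for genes above or below every region in vehicle animals. Of the genes above, 263 of 267 were called higher on the vertical axis too, and of the genes below 152 of 158 were called lower.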

How the data were processed

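Messenger RNA was counted with a 3′ end kit (QuantSeq forward, with unique molecular identifiers). Per the submitters' processing notes, the authors used cutadapt, UMI-tools 0.5.4, STAR 2.6.0a, featureCounts 1.6.4 and mm10. The deposited table holds raw counts for 27998 genes in 235 libraries. Tables of variance-stabilised log2 values that the authors deposited for each region were not used, since each was normalised separately. Coordinates are those of the count table, and 99.9% of shared genes overlap GENCODE M21 (GRCm38).

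Vehicle libraries were fitted together with edgeR 4.0.16 (filterByExpr by region, TMM, glmQLFit, glmQLFTest), with region and animal as terms and 96 residual degrees of freedom. Standard errors are the absolute log2 fold change over the square root of F, and calls were made at an adjusted p under 0.05. CPM values are TMM-scaled. The animal number pairs libraries because the labels give the same animal for the same number. Deviations from region means correlated at 0.0273 within and -0.00174 between animals. No pair of PFC libraries was within sampling noise (smallest chi-square per degree of freedom 1.35 over 105 pairs). On simulated counts for PFC against the mean of 7 regions, 49 of 49 genes raised 2-fold, 46 of 47 lowered 2-fold and 8 of 10038 unchanged genes were called. The simulation changed 200 genes in PFC and gave every other region the same mean per gene. It held no effect of animal, RIN or tissue mixture, so its rate of false calls need not hold for the real libraries.

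Genes named are the 12 with the largest smallest difference above every region (PFC mean of at least 5 CPM), the 12 below every region (at least 5 CPM in each region), the highest gene of each region among those under 1 CPM in PFC, members of 24 gene lists, and the 3 with the smallest interaction p. Others were named after their values were seen. A few genes are not reported here. The libraries, comparisons and gene lists were chosen with earlier results of these data known. Alternatives were no block, other scalings, other filters, RIN as a covariate, RIN of at least 7, plate, thinned counts, hippocampal regions weighted as 1, a 2-fold minimum and DESeq2 1.42.0. Leaving out PFC replicate 2 or the 4 libraries with Gabra6 was added after seeing the data, as were the alternatives for genes whose libraries did not overlap. Leaving out each replicate in turn was not run with 14 or 15 libraries in a group.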

Additional observations from a re-analysis of the deposited data

Results flagged for a closer look

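For 5 of the genes named in the text, the difference of PFC from the other regions was unlike in vehicle and dexamethasone animals, by the interaction test over libraries of both arms (edgeR's quasi-likelihood test, adjusted over 11053 genes). The values are dexamethasone minus vehicle on the log2 scale. They were -1.34 for Cdkn1a (adjusted p 6.3e-14), -0.999 for Znfx1 (1.5e-05), -0.72 for Ccng1 (4.5e-05), -0.69 for Herc6 (0.0059) and -0.65 for Dact2 (0.0092). With RIN as a covariate the adjusted p-values were 6.2e-14, 1.5e-05, 4.8e-05, 0.0064 and 0.0096. In vehicle animals PFC was higher than the mean of the other regions for all 5 in 15 of 15 animals. The first 3 changed sign between arms and the last 2 did not. The first 3 were named for having the smallest interaction p, so that they passed was fixed by this choice. Herc6 and Dact2 were named for their difference in vehicle animals. The interaction uses the same vehicle values, which favours a smaller difference in dexamethasone animals. At an unadjusted p under 0.05 the interaction passed for 467 genes.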

How the results depend on the processing

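Of the genes named by a rule or for the text (not every list member), 80 kept their direction and their side of the threshold in every alternative, 17 did so in those that tested them (fewer genes were tested in thinned counts and at a mean of at least 10 CPM), and 21 did not. Without the animal block, the pairing of libraries by animal being dropped, 2009 genes were higher and 2068 lower than the mean, and 257 and 150 stood above and below every region, and it changed the call of no named gene. With RIN as a covariate 104 genes were below every region. Among libraries with RIN of at least 7, which left no PVN, 1 AMY and 2 vDG libraries, 1304 genes were higher, 1041 lower, 16 above and 12 below every region, and the counts against AMY, CER, dCA1, dDG, vCA1 and vDG were 389, 3059, 1873, 1819, 961 and 448. Of the 12 leading genes on each side, 5 and 1 passed there, and 3 of 17 hypothalamic genes were lower. There 23 genes had PFC above and 3 below all other libraries. Thinned to 268538 counts per library, 882 genes were higher, 717 lower, 61 above and 38 below every region, 2 had no overlap above, and the counts against AMY, CER, PVN, dCA1, dDG, vCA1 and vDG were 1443, 2209, 1871, 1275, 1305, 420 and 949, so depth limits how many genes can be called. A 2-fold minimum left 252, 271, 27 and 24. Signs turned for Rorb (0.0561 with RIN as a covariate, 0.00198 at RIN of at least 7), Drd1 (0.15 with RIN as a covariate, 0.0336 without PFC replicate 2), Cdh1 (0.27) and Bcl11b (0.43) with hippocampal regions weighted as 1, and Cx3cr1 (-0.0431, thinned), and none of these had passed the test in the reported fit, while Bcl11b passed it when reweighted (adjusted p = 0.0097, edgeR). Without PFC replicate 2 the 4 counts were 2041, 2037, 287 and 192, and without the 4 libraries with Gabra6 they were 2014, 2075, 238 and 152. The cause of these changes was not tested.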

Other observations

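Spread among the 15 PFC libraries was described for 7710 genes with a mean of at least 20 CPM, where the median coefficient of variation was 19.9%. It was 18.7% for genes above every region and 20.2% for genes below every region. The largest values were those of Ugt8a (106%), Mobp (97.1%), Anln (95.4%), Bcas1 (83.4%) and Ermn (81.0%), and replicate 2 was the highest library for each. Without it they were 34.1%, 42.9%, 69.2%, 32.9% and 46.3%, and among genes whose mean was then at least 20 CPM the largest were Hbb-bs (70.5%), Hbb-bt (70.4%), Hba-a2 (67.6%) and Ttr (67.1%). Ugt8a, an enzyme of myelin lipid synthesis, was at 129 CPM in replicate 2, against a median of 20.0 CPM over the 15 libraries. Replicate 2 also had the highest summed level of hippocampal genes, at 1310 CPM against 997 to 1097 CPM in the other 14, and of astrocyte genes, at 11376 CPM against 8360 to 10474 CPM. Its summed level of hypothalamic genes, at 688 CPM against 754 to 1001 CPM, was the lowest.

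Genes whose symbol starts with Kcn, subunits and partners of potassium channels, were counted after some of their values were seen. Of 50 tested, 14 (28%) were higher than the mean of the 7 regions and 10 (20%) lower, beside 19.6% and 20% over all genes, with a median of 0.060. Above every region were 6 of them (12%), beside 2.58% of all genes tested, and 1, Kcnd2 (-0.69), was below every region, beside 1.52%. Kcnh3 and Kcnv1, potassium channel subunits, had log2 fold changes of 2.19 and 2.35, and Kcnh7, Kcnq5, Kcnf1 and Kcnmb4 had 1.63, 1.62, 1.52 and 1.32. Of these, Kcnh3 averaged 102 CPM in PFC and 2.32 CPM in PVN.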
